A study of Mus musculus with 12 samples.

Results

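Amino acid transporters were followed on 12 whole-genome expression arrays of mouse kidney material. Members were all genes with a probe set naming them alone whose symbol begins with Slc1a, Slc3a, Slc6a, Slc7a, Slc36a, Slc38a or Slc43a and a number, without the osmolyte carriers Slc6a6 and Slc6a12. The choice used no measured value and gave 61 of 18193 genes. Of these, 43 were bright enough to be tested, among 13031 genes tested, and 18 were not. The arrays held organoids, progenitor cells and kidney tissue, each from medulla and from cortex, with 2 arrays in each of the 6 groups. Progenitors had been isolated from tissue of either region and kept on feeder fibroblasts, organoids had been differentiated from progenitors in Matrigel in 3 dimensions, and tissue was taken as such. Total RNA was measured in each case. The sources used here give no strain, age, sex, medium, passage or culture time, and do not say whether feeder cells were removed or whether equal replicate numbers share an animal.

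Solute carriers of these families move amino acids across membranes, mostly coupled to sodium or in exchange for another amino acid. In the proximal tubule of the kidney, apical carriers take filtered amino acids up from the lumen and basolateral carriers pass them to the blood, so that little is lost in urine. Light chains of the Slc7 family reach the membrane only with a heavy chain, Slc3a1 at the apical side and Slc3a2 at the basolateral side and in most growing cells. Growing cells rely on other carriers, among them Slc7a5, Slc1a5 and Slc7a11, some of which are raised by the transcription factor ATF4 when amino acids are short.

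Promoters are shown for 4 carriers whose signals set the sample types apart below, from RefSeq on build GRCm38.p6, 5′ to 3′ on the gene's strand, with motif matches in capitals. Slc7a11, Slc1a4 and Slc7a7 hold the core of the amino acid response element that ATF4 binds, TGATGNAA, searched on both strands. Slc3a1 holds CAAAGTCCA, a site of the tubule and liver factor HNF4A. The stretches lie at chr3:50443614-50443723 (minus strand) for Slc7a11, chr11:20332704-20332803 (minus) for Slc1a4, chr14:54417935-54418094 (minus) for Slc7a7 and chr17:85028247-85028346 (plus) for Slc3a1.
Slc7a11: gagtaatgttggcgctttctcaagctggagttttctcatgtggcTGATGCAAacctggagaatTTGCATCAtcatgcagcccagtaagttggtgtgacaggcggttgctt
Slc1a4: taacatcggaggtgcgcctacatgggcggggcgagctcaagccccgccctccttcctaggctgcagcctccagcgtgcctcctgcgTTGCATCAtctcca
Slc7a7: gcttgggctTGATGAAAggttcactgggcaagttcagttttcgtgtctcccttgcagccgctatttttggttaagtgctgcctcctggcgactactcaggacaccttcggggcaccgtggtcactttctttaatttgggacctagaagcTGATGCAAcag
Slc3a1: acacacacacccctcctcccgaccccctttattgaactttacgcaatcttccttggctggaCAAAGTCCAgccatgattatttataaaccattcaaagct

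Of 45 members with a promoter in the table, TGATGNAA stood in 4, namely Slc7a11, Slc1a4, Slc7a7 and Slc6a21, and in 4.51% of the promoters of 27025 genes. The letters CAAAGTCCA were found in Slc3a1 among the members and in 0.555% of all promoters. Neither an HNF1 site (0.074% of promoters) nor the antioxidant response letters TGACTCAGC (0.503%) were found in a member. As the results below show, 3 carriers with TGATGNAA did not move alike: Slc7a11, and Slc1a4 on 1 of its 3 bright probe sets, were higher in organoids than in tissue, whereas Slc7a7 was lower. A match describes the letters and is not a bound site.

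Values on single arrays are the deposited log2 signals. Differences are log2 differences in limma after adding 15.1592 signal units, with the standard error (SE) and a p-value adjusted over all genes tested. A member rose or fell where the adjusted p was under 0.05. Differences between sample types average both regions, with 4 arrays on each side. They are differences of signal within a probe set, and no level is compared between genes. Folds are given only where the arrays of both sides lay above their array medians, because against dimmer arrays the added units set the size of the fold and understate it. On the adult marker lists, the 14 proximal tubule genes averaged 4.53 to 5.31 in organoids, 2.86 to 3.70 in progenitors and 13.78 to 14.39 in tissue, and all 14 fell in both cultures against tissue. Medulla tissue carried them at 13.78 and 14.27, close to the 14.31 and 14.39 of cortex tissue. The 7 endothelial genes also fell in progenitors against tissue, while 7 of 7 keratins and other genes of simple epithelium rose. Spiked poly-A controls read 1.16 to 2.30 on organoid arrays, 7.01 to 7.16 on progenitor arrays and 7.69 to 8.24 on tissue arrays, while hybridisation controls read 12.44 to 12.81, 11.66 to 11.72 and 12.08 to 12.33 on the same arrays. The Gapdh 3′ minus 5′ difference was 0.867 to 1.67 on organoid arrays, -0.405 to -0.298 on progenitor arrays and -0.233 to 0.183 on tissue arrays. The actin 3′ minus 5′ difference ran another way, at -0.002 to 0.149 on organoid arrays, 0.163 to 0.187 on progenitor arrays and 0.938 to 1.63 on tissue arrays. These technical differences and the sample types cannot be told apart.

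In progenitors against tissue, 36 of 43 members passed (83.7%, where 72.7% of all genes did). Of these, 10 rose (23.3% of members, 36.8% of all genes) and 26 fell (60.5% of members, 35.9% of all genes). The median log2 difference was -1.87 over members and 0.03 over all genes. In organoids against progenitors, 29 members passed (67.4%, against 72.3% of all genes), of which 19 rose (44.2%, against 28.1%) and 10 fell (23.3%, against 44.3%), with a median of 0.36 against -0.29. That split was 16 higher and 11 lower after quantile normalization and 16 and 13 after scaling to the 75th percentile, which moved the median of all genes to -0.40. Under these settings 62.8% and 67.4% of members passed, against 73.1% and 73.2% of all genes. In organoids against tissue, 36 passed (83.7%, against 79.7%), of which 11 rose (25.6%, against 33.1%) and 25 fell (58.1%, against 46.6%), with a median of -1.11 against -0.29, or -0.51 for all genes under the 75th percentile. These 3 comparisons share arrays, so their counts are not independent of each other. The brightness filter also ties some calls to a direction. Of the members, 15 passed it in tissue and not in progenitors, and all 15 fell in progenitors, while the 23 that passed it in both gave 7 that rose and 11 that fell. Of 4 that passed in progenitors and not in tissue, 3 rose. Between organoids and progenitors, the 7 that passed in organoids and not in progenitors all rose, and of the 23 bright in both 11 rose and 5 fell. Of 4 that passed in progenitors and not in organoids 2 fell, and of 9 bright in neither 1 rose and 3 fell. Between organoids and tissue, the 10 that passed in tissue and not in organoids all fell, and of the 28 bright in both 9 rose and 13 fell. The 2 that passed in organoids and not in tissue rose, and of 3 bright in neither 2 fell.

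**Figure D1:**
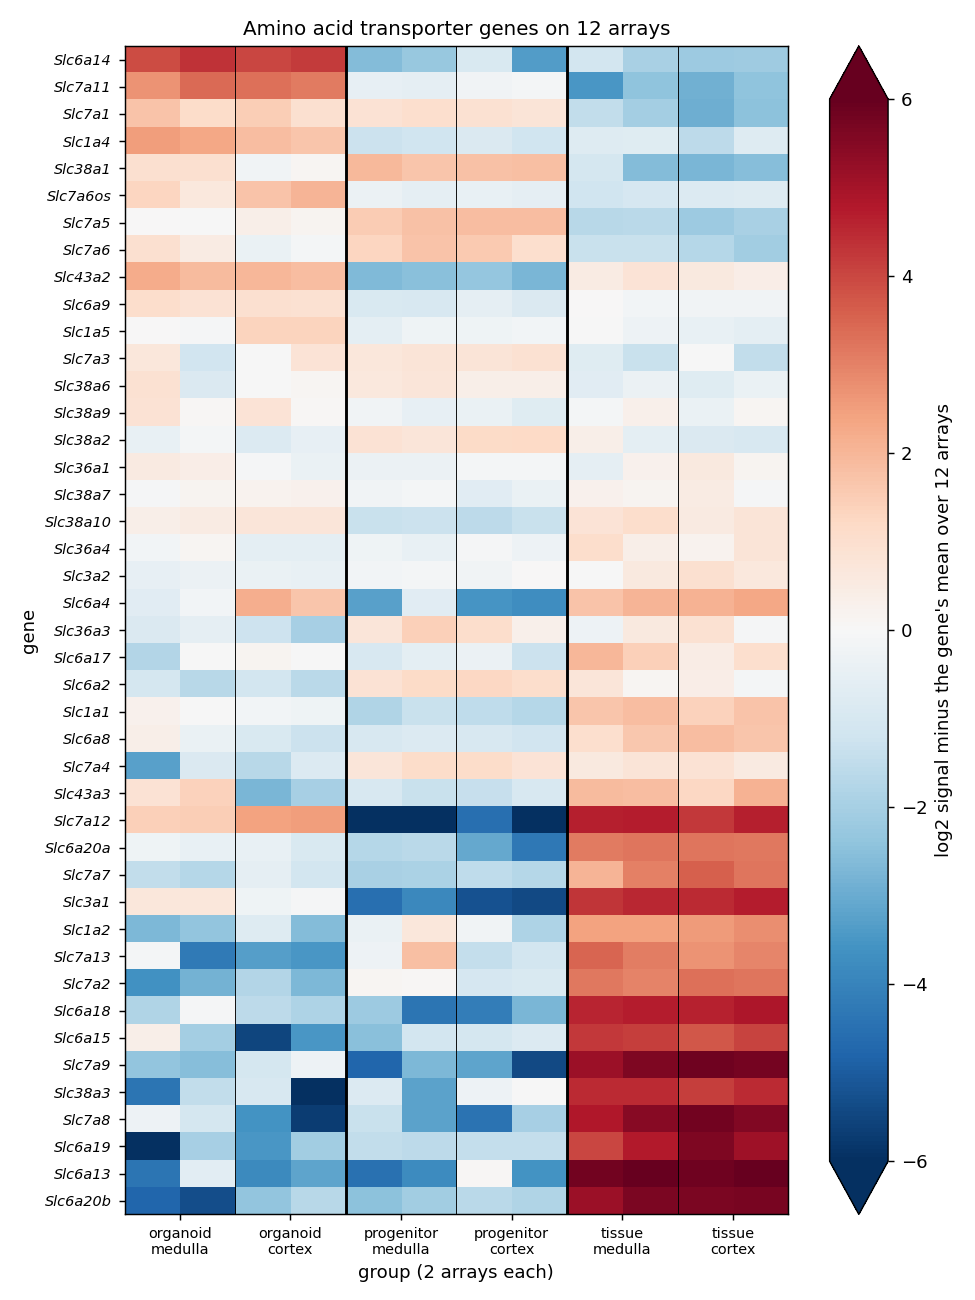
The 43 tested amino acid transporter genes (rows, ordered by their difference between organoids and tissue) on 12 arrays (columns, 2 per group), coloured by log2 signal minus the gene's mean over the arrays, with colours ending at 6 either way. Slc6a14 and Slc7a11 head the rows that are high in organoids, and the lowest rows, among them Slc6a20b, Slc6a13 and Slc6a19, are high on the 4 tissue arrays.

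The carriers of the apical membrane of the proximal tubule were bright in tissue and fell in culture. Of 9 listed, 8 were tested, and all 8 fell in progenitors and in organoids against tissue (35.9% and 46.6% of all genes did). Of these 8, 7 were above the array medians in tissue and not in progenitors, and Slc6a18, Slc6a19, Slc6a20b and Slc7a13 in tissue alone, so that being tested and being lower in culture go together for them. Only Slc1a1 was bright in every sample type. The listed glycine and proline carrier Slc36a2 was too dim to be tested, at 0.86 to 4.25 in organoids, 5.78 to 6.30 in progenitors and 5.40 to 6.26 in tissue, with progenitors in the range of tissue. In organoids against progenitors 5 rose (28.1% of all genes did), 2 fell (44.3%) and Slc7a13 did not pass. The proximal tubule marker list was lower in both cultures by the values given above, its part in these differences was not tested, and in these bulk samples fewer cells of a type and less RNA per cell cannot be told apart.

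Slc3a1, the heavy chain (rBAT) of the apical carrier for cystine and dibasic amino acids, had log2 signals of 9.89 and 9.93 in medulla organoids and 8.98 and 9.16 in cortex organoids, 4.72 and 5.37 in medulla progenitors and 4.02 and 3.82 in cortex progenitors, and 13.53 and 13.75 in medulla tissue and 13.70 and 13.93 in cortex tissue. Organoids thus stood between progenitors and tissue on every array, with no overlap. Slc3a1 was lower in progenitors than in tissue (log2 difference -8.47 ± 0.13, adjusted p = 7.79e-13). In organoids it was higher than in progenitors (4.26 ± 0.13, adjusted p = 2.57e-10) and 18.5-fold lower than in tissue (-4.21 ± 0.13, adjusted p = 7.5e-11). Its light chain Slc7a9, which together with Slc3a1 is mutated in cystinuria, gave 5.07 and 4.91 in medulla organoids and 6.41 and 7.14 in cortex organoids, 2.68 and 4.79 in medulla progenitors and 4.28 and 2.05 in cortex progenitors, and 12.58 and 13.08 in medulla tissue and 13.31 and 13.22 in cortex tissue. Tissue was far above both cultures on all arrays, and the progenitor arrays lay below the organoid arrays. Slc7a9 fell in progenitors against tissue (-8.25 ± 0.27, adjusted p = 8.97e-11) and was higher in organoids than in progenitors (1.45 ± 0.27, adjusted p = 0.000406). That rise was not called in the medulla groups alone (0.63, adjusted p = 0.171). Against tissue it was lower in organoids (-6.79 ± 0.27, adjusted p = 4.48e-10). The difference between organoids and tissue was -4.21 for the heavy chain Slc3a1 and -6.79 for the light chain Slc7a9, each within its own probe set, and no test compared them.

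Another light chain that pairs with Slc3a1 is Slc7a13, which carries cystine, aspartate and glutamate in the late proximal tubule of the mouse. Its signals were 3.71 and -0.43 in medulla organoids and 0.53 and 0.34 in cortex organoids, 3.5 and 5.62 in medulla progenitors and 2.38 and 2.73 in cortex progenitors, and 7.29 and 6.92 in medulla tissue and 6.53 and 6.77 in cortex tissue. Every tissue array was above every culture array, and the cultures were dim and scattered. Slc7a13 fell in progenitors (-2.18 ± 0.31, adjusted p = 4.72e-05) and in organoids (-2.83 ± 0.31, adjusted p = 3.87e-06) against tissue, and the difference between organoids and progenitors (-0.66 ± 0.31, adjusted p = 0.0775) did not pass. The kidney light chain Slc7a12, whose heavy chain is not known, showed the widest swing among the members. It had 10.96 and 11.03 in medulla organoids and 11.96 and 12.05 in cortex organoids, 2.92 and 1.20 in medulla progenitors and 5.03 and 3.04 in cortex progenitors, and 14.22 and 14.25 in medulla tissue and 13.79 and 14.21 in cortex tissue. Progenitor arrays were near the bottom of the scale, organoid arrays were bright and tissue arrays brighter still, and the sample types did not overlap. Slc7a12 was lower in progenitors than in tissue (-9.43 ± 0.19, adjusted p = 3.82e-12), higher in organoids than in progenitors (6.82 ± 0.19, adjusted p = 1.29e-10) and 6.11-fold lower in organoids than in tissue (-2.61 ± 0.19, adjusted p = 1.09e-07).

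The apical carriers of neutral amino acids belong to the Slc6 family. Slc6a19, the main one and the gene of Hartnup disorder, gave 1.15 and 5.10 in medulla organoids and 3.62 and 5.01 in cortex organoids, 5.63 and 5.54 in medulla progenitors and 5.69 and 5.70 in cortex progenitors, and 11.13 and 11.88 in medulla tissue and 12.69 and 12.20 in cortex tissue. Tissue was high, progenitors were low and even, and organoids were lower still and uneven, below all progenitor arrays. Slc6a19 fell in progenitors (-5.96 ± 0.32, adjusted p = 7.02e-09) and in organoids (-6.96 ± 0.32, adjusted p = 1.64e-09) against tissue. The further difference of organoids from progenitors, -1.0 ± 0.32 (adjusted p = 0.0148), was not called in either region alone, and another bright probe set of the gene gave a rise of 1.42 there. Slc6a18, a related carrier of glycine and other small neutral amino acids, had 6.09 and 7.80 in medulla organoids and 6.30 and 6.05 in cortex organoids, 5.69 and 3.47 in medulla progenitors and 3.75 and 5.14 in cortex progenitors, and 12.43 and 12.61 in medulla tissue and 12.49 and 12.71 in cortex tissue. Organoid arrays were all above the progenitor arrays and all far below tissue. The differences were -7.25 ± 0.35 in progenitors against tissue (adjusted p = 2.71e-09), 1.48 ± 0.35 in organoids against progenitors (adjusted p = 0.00255, not called in the cortex groups alone) and -5.77 ± 0.35 in organoids against tissue (adjusted p = 1.89e-08).

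Proline and other imino acids enter through Slc6a20a, whose signals were 6.96 and 6.79 in medulla organoids and 6.75 and 6.32 in cortex organoids, 5.5 and 5.62 in medulla progenitors and 4.15 and 2.91 in cortex progenitors, and 10.32 and 10.44 in medulla tissue and 10.45 and 10.39 in cortex tissue. The order was tissue, organoids, progenitors, with no overlap. Slc6a20a fell in progenitors (-5.05 ± 0.19, adjusted p = 3.35e-10), was higher in organoids than in progenitors (1.53 ± 0.19, adjusted p = 1.79e-05) and remained below tissue in organoids (-3.51 ± 0.19, adjusted p = 7.11e-09). Its close paralog Slc6a20b had 2.04 and 1.46 in medulla organoids and 4.43 and 5.12 in cortex organoids, 4.33 and 4.70 in medulla progenitors and 5.17 and 4.97 in cortex progenitors, and 11.91 and 12.46 in medulla tissue and 12.42 and 12.51 in cortex tissue. Here the medulla organoids were the dimmest group, and cortex organoids overlapped progenitors. Slc6a20b fell in progenitors (-6.90 ± 0.20, adjusted p = 3.39e-11) and in organoids (-7.51 ± 0.20, adjusted p = 2.25e-11) against tissue. Between organoids and progenitors its difference was -0.61 ± 0.20 (adjusted p = 0.0155), lost in the cortex groups alone (-0.19, adjusted p = 0.581). The other bright probe set of Slc6a20b gave -0.11 there and was not called (adjusted p = 0.765). The paralogs are similar in sequence, so their values may share signal.

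Slc1a1, the apical carrier of glutamate and aspartate, stayed bright in every sample type. It had 11.46 and 11.19 in medulla organoids and 11.05 and 10.98 in cortex organoids, 9.44 and 9.88 in medulla progenitors and 9.69 and 9.53 in cortex progenitors, and 12.89 and 13.07 in medulla tissue and 12.61 and 12.93 in cortex tissue. Tissue was highest, organoids intermediate and progenitors lowest on every array. Slc1a1 was 9.28-fold lower in progenitors than in tissue (-3.21 ± 0.12, adjusted p = 2.9e-10), 2.87-fold higher in organoids than in progenitors (1.52 ± 0.12, adjusted p = 3.25e-07) and 3.23-fold lower in organoids than in tissue (-1.69 ± 0.12, adjusted p = 7.35e-08).

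**Figure D2:**
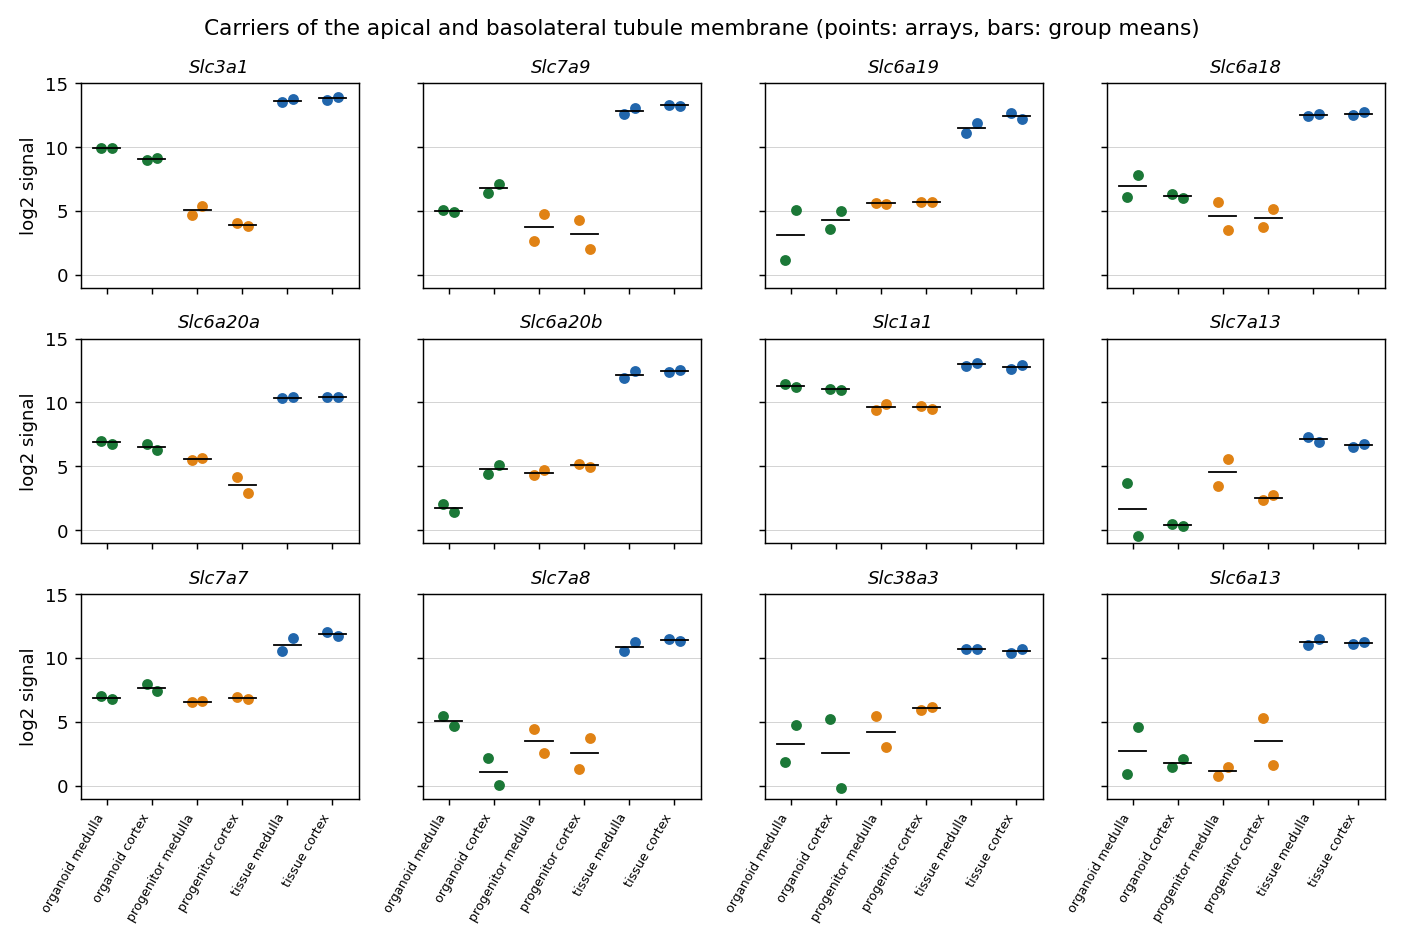
Log2 signal (vertical axis) of 12 carriers of the apical and basolateral tubule membrane in the 6 groups, each point an array and each bar a group mean. The 4 tissue arrays lie above all culture arrays in every panel, and organoids lie above progenitors for Slc3a1, Slc7a9, Slc6a18, Slc6a20a and Slc1a1.

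At the basolateral membrane, all 5 listed carriers fell in progenitors against tissue (35.9% of all genes did). Of these, Slc7a8 and Slc6a13 were above the array medians in tissue alone. In organoids only Slc43a2 was higher than in progenitors among these 5 (20%, against 28.1% of all genes), and the other 4 did not pass. Against tissue, 4 were lower in organoids (80%, against 46.6%) and Slc43a2 was higher (20%, against 33.1%). Slc7a7, the light chain for the exit of dibasic amino acids, had 7.0 and 6.80 in medulla organoids and 7.95 and 7.40 in cortex organoids, 6.56 and 6.60 in medulla progenitors and 6.97 and 6.76 in cortex progenitors, and 10.52 and 11.53 in medulla tissue and 12.06 and 11.70 in cortex tissue. Progenitors were low, organoids overlapped them and tissue was high. It was lower in progenitors (-4.55 ± 0.22, adjusted p = 2.42e-09) and in organoids (-4.03 ± 0.22, adjusted p = 6.36e-09) than in tissue, and the difference between the cultures was 0.51 ± 0.22 (adjusted p = 0.0534). The other bright probe set of Slc7a7 was called higher in organoids than in progenitors. Slc7a8, a light chain that exchanges neutral amino acids, gave 5.42 and 4.71 in medulla organoids and 2.14 and 0.06 in cortex organoids, 4.41 and 2.56 in medulla progenitors and 1.33 and 3.74 in cortex progenitors, and 10.53 and 11.23 in medulla tissue and 11.52 and 11.29 in cortex tissue. The cultures overlapped each other and lay far below tissue. Slc7a8 fell in progenitors (-6.51 ± 0.27, adjusted p = 7.62e-10) and in organoids (-6.27 ± 0.27, adjusted p = 9.99e-10).

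Slc38a3, through which tubule cells take up glutamine for ammonia production, had 1.84 and 4.72 in medulla organoids and 5.24 and -0.18 in cortex organoids, 5.42 and 3.0 in medulla progenitors and 5.92 and 6.18 in cortex progenitors, and 10.72 and 10.70 in medulla tissue and 10.39 and 10.69 in cortex tissue. The culture arrays scattered over several log2 units and tissue was even and high. The differences from tissue were -4.87 ± 0.41 in progenitors (adjusted p = 3.58e-07) and -5.80 ± 0.41 in organoids (adjusted p = 6.01e-08). Slc6a13, a carrier of GABA and taurine, had 0.89 and 4.61 in medulla organoids and 1.45 and 2.08 in cortex organoids, 0.77 and 1.5 in medulla progenitors and 5.32 and 1.65 in cortex progenitors, and 11.04 and 11.45 in medulla tissue and 11.08 and 11.27 in cortex tissue. All cultures were dim. Slc6a13 was lower than in tissue by a log2 difference of -6.67 ± 0.35 in progenitors (adjusted p = 5.75e-09) and -6.76 ± 0.35 in organoids (adjusted p = 4.63e-09).

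Slc43a2, which lets branched-chain and other large neutral amino acids out of the cell, went another way from the other basolateral carriers in organoids. Its signals were 12.87 and 12.56 in medulla organoids and 12.63 and 12.52 in cortex organoids, 7.99 and 8.16 in medulla progenitors and 8.33 and 7.92 in cortex progenitors, and 11.13 and 11.47 in medulla tissue and 11.26 and 11.06 in cortex tissue. Organoids were the brightest on every array, tissue was intermediate and progenitors were lowest. Slc43a2 was 8.33-fold lower in progenitors than in tissue (-3.06 ± 0.12, adjusted p = 5.71e-10), 22.1-fold higher in organoids than in progenitors (4.47 ± 0.12, adjusted p = 1.12e-10) and 2.65-fold higher in organoids than in tissue (1.41 ± 0.12, adjusted p = 5.34e-07). Its other 2 bright probe sets were also called higher in organoids than in progenitors. Against tissue, 1 of these was higher in organoids (1.15, adjusted p = 4.33e-06). The other gave -0.61 and was not called (adjusted p = 0.169).

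Most nutrient carriers of many cell types were higher in the cultures than in tissue. Of 9 listed and tested, 6 rose (66.7%, against 36.8% of all genes), 1 fell (11.1%, against 35.9%) and 2 did not pass in progenitors against tissue, with a median of 1.94. In organoids against tissue, 7 rose (77.8%, against 33.1%), 1 fell (11.1%, against 46.6%) and 1 did not pass, with a median of 1.88. Between organoids and progenitors 4 rose and 4 fell (44.4% each, against 28.1% and 44.3%). Progenitors had been kept on feeder fibroblasts, and of 11 fibroblast and feeder markers 7 rose and 3 fell in progenitors against tissue, 1 rose and 9 fell in organoids against progenitors and 3 rose and 8 fell in organoids against tissue; their part in these differences was not tested. Slc3a2, the heavy chain that the light chains Slc7a5, Slc7a6 and Slc7a11 need, was the carrier that fell. It had 11.55 and 11.68 in medulla organoids and 11.64 and 11.60 in cortex organoids, 11.86 and 11.90 in medulla progenitors and 11.82 and 12.04 in cortex progenitors, and 12.001 and 12.60 in medulla tissue and 12.98 and 12.67 in cortex tissue. It was bright everywhere, with organoids below tissue on all arrays and progenitors overlapping tissue. Slc3a2 was lower than in tissue by a log2 difference of -0.65 ± 0.13 in progenitors (adjusted p = 0.000498, not called in the medulla groups alone) and -0.94 ± 0.13 in organoids (adjusted p = 2.1e-05).

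Slc7a5, the light chain for large neutral amino acids of growing cells, had 9.18 and 9.11 in medulla organoids and 9.49 and 9.29 in cortex organoids, 10.68 and 10.89 in medulla progenitors and 10.98 and 10.99 in cortex progenitors, and 7.5 and 7.51 in medulla tissue and 6.97 and 7.19 in cortex tissue. Progenitors were highest, organoids intermediate and tissue lowest, with no overlap. Slc7a5 was 11.1-fold higher in progenitors than in tissue (3.47 ± 0.12, adjusted p = 1.45e-10), lower in organoids than in progenitors (-1.59 ± 0.12, adjusted p = 2.07e-07) and higher in organoids than in tissue (1.88 ± 0.12, adjusted p = 2.71e-08). The same order held for Slc7a6, which exchanges dibasic for neutral amino acids, at 8.61 to 9.996 in organoids, 10.03 to 10.76 in progenitors and 6.95 to 7.71 in tissue. Its differences were 2.90 ± 0.18, -1.15 ± 0.18 and 1.75 ± 0.18 for progenitors against tissue, organoids against progenitors and organoids against tissue (adjusted p = 2.25e-08, 0.000103 and 2e-06). Slc38a1, a sodium-coupled glutamine carrier, gave 8.96 to 10.12 in organoids, 10.81 to 11.10 in progenitors and 6.43 to 8.13 in tissue and the differences 3.85 ± 0.25, -1.31 ± 0.25 and 2.54 ± 0.25 in the same order of comparisons (adjusted p = 3.18e-08, 0.000446 and 1.25e-06). The fall from progenitors was not called in the medulla groups alone, and this probe set may also detect related transcripts.

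Slc7a11, the light chain that brings in cystine in exchange for glutamate, was higher in both cultures than in tissue. It had 10.23 and 10.94 in medulla organoids and 10.85 and 10.68 in cortex organoids, 7.03 and 7.02 in medulla progenitors and 7.33 and 7.44 in cortex progenitors, and 4.07 and 5.13 in medulla tissue and 4.67 and 5.13 in cortex tissue. Organoids were highest, progenitors intermediate and tissue lowest, and the sample types did not overlap. Slc7a11 was higher in progenitors than in tissue (1.94 ± 0.22, adjusted p = 5.46e-06), 10.1-fold higher in organoids than in progenitors (3.34 ± 0.22, adjusted p = 5.92e-08) and higher in organoids than in tissue (5.28 ± 0.22, adjusted p = 5.9e-10). Another bright probe set of Slc7a11 gave 2.41, 1.87 and 4.28 in these comparisons, all called.

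Slc6a14, a carrier of neutral and cationic amino acids best known from lung, colon and breast epithelium, was dim except in organoids. Its signals were 10.80 and 11.23 in medulla organoids and 10.87 and 11.07 in cortex organoids, 4.28 and 4.62 in medulla progenitors and 5.97 and 3.52 in cortex progenitors, and 5.77 and 4.95 in medulla tissue and 4.71 and 4.76 in cortex tissue. Organoids of both regions were bright, and progenitors and tissue overlapped. Slc6a14 was higher in organoids than in progenitors (5.64 ± 0.31, adjusted p = 1.46e-08) and higher than in tissue (5.40 ± 0.31, adjusted p = 9.67e-09). It passed the brightness filter in organoids alone, so that being tested and being higher in organoids go together. Progenitors and tissue differed by -0.24 ± 0.31 (adjusted p = 0.493). Another bright probe set of Slc6a14 gave 5.75 in organoids against progenitors and 5.65 against tissue, both called.

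Slc7a1, the cationic amino acid carrier for arginine and lysine, had 12.78 and 12.16 in medulla organoids and 12.52 and 12.03 in cortex organoids, 11.92 and 12.08 in medulla progenitors and 11.96 and 11.84 in cortex progenitors, and 9.60 and 9.0 in medulla tissue and 8.13 and 8.58 in cortex tissue. Both cultures were above tissue, and they overlapped each other. Slc7a1 rose in progenitors (3.08 ± 0.18, adjusted p = 1.11e-08) and in organoids (3.5 ± 0.18, adjusted p = 3.16e-09) against tissue. Its difference between organoids and progenitors, 0.43 ± 0.18 (adjusted p = 0.0461), was not called in either region alone or under the 75th percentile. The carriers of alanine, serine and cysteine behaved otherwise. Slc1a4 had 11.24 and 11.05 in medulla organoids and 10.58 and 10.42 in cortex organoids, 7.47 and 7.56 in medulla progenitors and 7.89 and 7.52 in cortex progenitors, and 7.98 and 8.0 in medulla tissue and 7.16 and 7.98 in cortex tissue. Organoids were far above progenitors and tissue, which overlapped. On the probe set that stands for it, Slc1a4 was 8.67-fold higher in organoids than in progenitors (3.12 ± 0.18, adjusted p = 1.99e-08) and 7.77-fold higher than in tissue (2.96 ± 0.18, adjusted p = 1.48e-08). Slc1a5, which also takes up glutamine, gave 9.42 and 9.31 in medulla organoids and 10.70 and 10.71 in cortex organoids, 8.79 and 9.11 in medulla progenitors and 9.11 and 9.24 in cortex progenitors, and 9.38 and 9.07 in medulla tissue and 8.96 and 8.79 in cortex tissue. Cortex organoids alone stood clearly above the rest. The mean over regions was higher in organoids than in progenitors (0.96 ± 0.13, adjusted p = 2.37e-05) and than in tissue (0.97 ± 0.13, adjusted p = 1.59e-05), but neither was called in the medulla groups alone (0.40 and 0.14, adjusted p = 0.0652 and 0.503). Slc38a2, the glutamine carrier that cells raise when starved of amino acids, was 11.39 to 12.09 in organoids, 12.97 to 13.42 in progenitors and 11.25 to 12.58 in tissue. It was higher in progenitors than in tissue (1.49 ± 0.17, adjusted p = 6.43e-06) and lower in organoids than in progenitors (-1.46 ± 0.17, adjusted p = 9.37e-06), with no call between organoids and tissue on the probe set that stands for it (0.04 ± 0.17, adjusted p = 0.855).

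**Figure D3:**
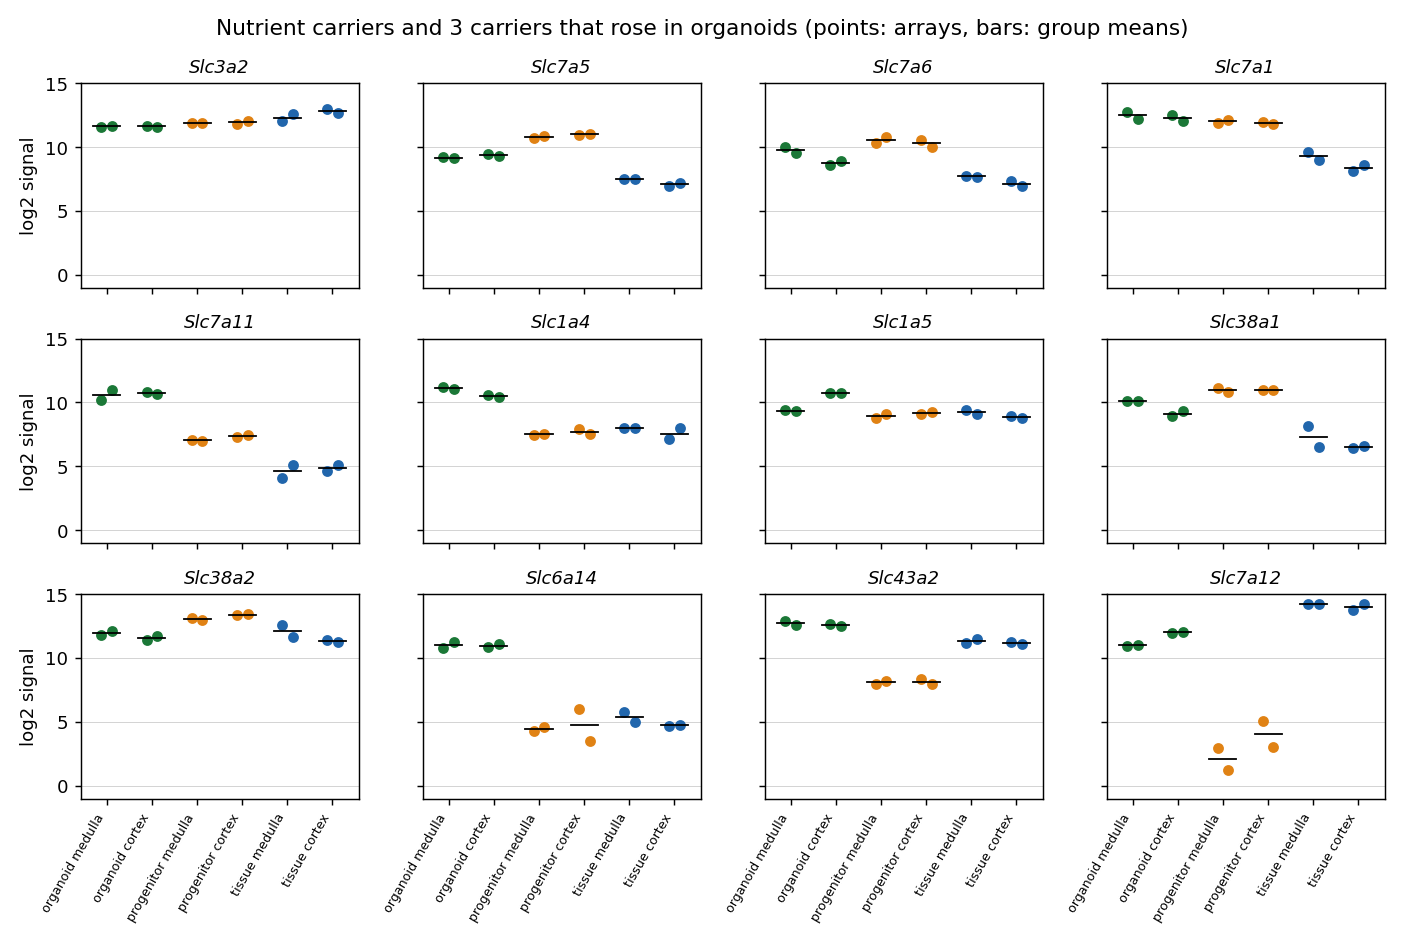
Log2 signal (vertical axis) of the 9 nutrient carriers and of Slc6a14, Slc43a2 and Slc7a12 in the 6 groups, each point an array and each bar a group mean. Slc6a14 lies between 10.80 and 11.23 on the organoid arrays, above all other arrays, and Slc7a5, Slc7a6, Slc38a1 and Slc38a2 are highest on the progenitor arrays.

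Several of these genes have more than 1 bright probe set, and these did not always move alike between organoids and progenitors. Of 18 members called there with other bright probe sets, the others were all called the same way in 7, and at least 1 was called the opposite way in 7. For progenitors against tissue the numbers were 16, 14 and 1, and for organoids against tissue 18, 13 and 1. Probe sets of other genes were not compared in this way, so these counts do not set the members apart from all genes. Slc1a4 rose on 1 of 3 bright probe sets, by the 3.12 given above, and the others gave -0.91 (adjusted p = 0.00454) and 0.11. Against tissue these other probe sets of Slc1a4 gave -0.48 and -0.02 in organoids, neither called (adjusted p = 0.082 and 0.942). The 3 bright probe sets of Slc38a2 gave -1.46, 0.10 and 3.51 between organoids and progenitors, and those of Slc7a1 gave 0.43, -0.86 and 3.55. Against tissue the other probe sets of Slc38a2 were both higher in organoids, by 3.64 and 4.06 (adjusted p = 1.65e-08 and 1.98e-09), as was the mean of its probe sets (2.58, adjusted p = 6.44e-08). Slc7a4 fell by 2.34 on one and rose by 0.502 on the other, which was also higher in organoids than in tissue (1.13, adjusted p = 0.000137). Slc1a5 rose on both, by 0.96 and 3.43. Slc38a10 rose by 1.95 on the probe set that stands for it, and of the other 5 bright ones 1 was called, at 0.62. In progenitors against tissue 2 of these 5 fell and 1 rose. The other bright probe set of Slc6a9 was called neither in progenitors against tissue nor in organoids against progenitors. Which part of the transcript each probe set reads was not used here, and the 3′ minus 5′ values above differed between sample types, with Gapdh highest in organoids and actin highest in tissue; their part in these disagreements was not tested.

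**Figure D4:**
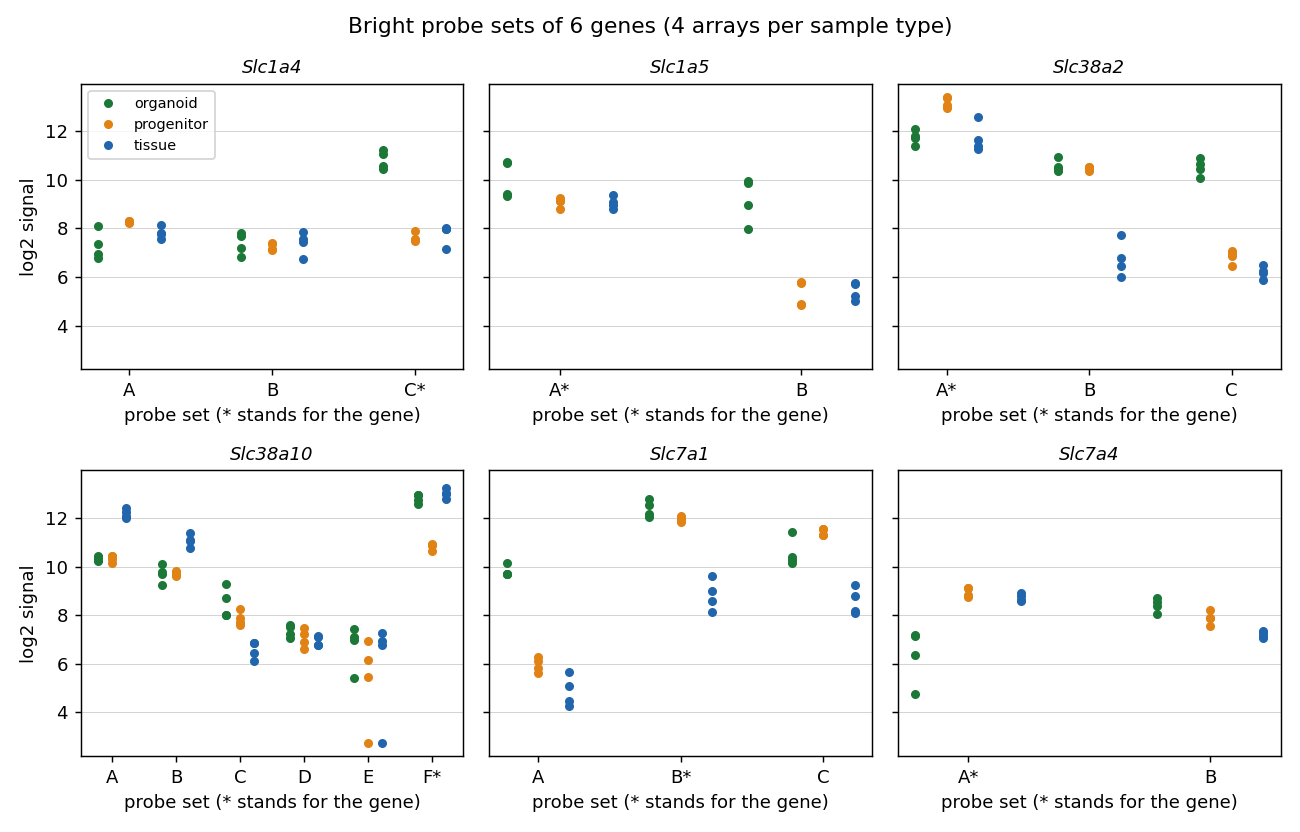
Log2 signal of the bright probe sets of 6 genes on the 4 arrays of each sample type (organoid, progenitor and tissue from left to right within a probe set), with an asterisk on the probe set that stands for the gene. The probe sets of Slc1a4 and Slc38a2 disagree on whether organoids exceed progenitors, whereas both probe sets of Slc1a5 are higher in organoids.

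Of the carriers for neurotransmitters, glycine and creatine, 5 of 12 listed were bright enough to test. In progenitors against tissue 1 rose and 4 fell, where 36.8% of all genes rose and 35.9% fell. In organoids against tissue 1 rose and 4 fell as well, where 33.1% of all genes rose and 46.6% fell. Slc1a2 was above the array medians in tissue alone and Slc6a2 in progenitors alone. Slc6a9, the glycine carrier GlyT1, was 10.08 to 10.26 in organoids, 8.22 to 8.67 in progenitors and 8.97 to 9.21 in tissue. It was lower in progenitors than in tissue (-0.65 ± 0.13, adjusted p = 0.000532, not called as the mean of all probe sets), higher in organoids than in progenitors (1.73 ± 0.13, adjusted p = 1.53e-07) and higher in organoids than in tissue (1.08 ± 0.13, adjusted p = 6.33e-06). Slc6a8, the creatine carrier, had 11.08 and 10.31 in medulla organoids and 9.82 and 9.43 in cortex organoids, 9.74 and 9.88 in medulla progenitors and 9.74 and 9.56 in cortex progenitors, and 11.71 and 12.35 in medulla tissue and 12.56 and 12.36 in cortex tissue. Tissue was above both cultures, which overlapped. It fell in progenitors (-2.49 ± 0.18, adjusted p = 9.88e-08) and in organoids (-2.07 ± 0.18, adjusted p = 4.61e-07) against tissue. The serotonin carrier Slc6a4 had 5.14 and 5.67 in medulla organoids and 7.97 and 7.47 in cortex organoids, 2.54 and 5.13 in medulla progenitors and 2.29 and 2.10 in cortex progenitors, and 7.52 and 7.85 in medulla tissue and 7.89 and 8.15 in cortex tissue. Cortex organoids reached the range of tissue and medulla organoids did not. Over both regions Slc6a4 was lower in progenitors than in tissue (-3.28 ± 0.29, adjusted p = 5.66e-07), higher in organoids than in progenitors (2.17 ± 0.29, adjusted p = 2.62e-05, not called in the medulla groups alone) and lower in organoids than in tissue (-1.11 ± 0.29, adjusted p = 0.00362, not called in the cortex groups alone).

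The noradrenaline carrier Slc6a2 was 4.06 to 4.71 in organoids, 6.61 to 7.0 in progenitors and 5.63 to 6.48 in tissue, with differences of 0.67 ± 0.23 in progenitors against tissue (adjusted p = 0.0225), -1.82 ± 0.23 in organoids against progenitors (adjusted p = 2.1e-05) and -1.16 ± 0.23 in organoids against tissue (adjusted p = 0.00066). The first of these was lost with several settings, among them the medulla groups alone. Slc1a2, the glial glutamate carrier, was 1.57 to 3.48 in organoids, 2.42 to 4.93 in progenitors and 6.67 to 7.06 in tissue and fell in progenitors (-2.05 ± 0.26, adjusted p = 1.63e-05) and organoids (-2.65 ± 0.26, adjusted p = 1.36e-06) against tissue. Among neutral amino acid carriers known from brain, Slc6a15 was 0.54 to 6.39 in organoids, 3.52 to 5.24 in progenitors and 9.78 to 10.28 in tissue and fell, with -4.72 ± 0.34 in progenitors and -5.09 ± 0.34 in organoids against tissue (adjusted p = 8.26e-08 and 3.51e-08). Its vesicular relative Slc6a17 fell as well, with -1.87 ± 0.32 in progenitors and -1.52 ± 0.32 in organoids (adjusted p = 0.000198 and 0.000866, the organoid difference not called in the cortex groups alone). The cationic carrier Slc7a2 was 0.67 to 2.53 in organoids, 3.30 to 4.42 in progenitors and 7.30 to 7.62 in tissue, lowest in organoids. On this probe set it fell in each comparison (-2.67 ± 0.21, -0.72 ± 0.21 and -3.39 ± 0.21, adjusted p = 2.26e-07, 0.00893 and 2.19e-08). The fall from progenitors was not called in the cortex groups alone. The other bright probe set of Slc7a2 gave -0.08 in organoids against progenitors and was not called (adjusted p = 0.805). Its relative Slc7a3 was 4.63 to 6.63 in organoids, 6.48 to 6.72 in progenitors and 4.32 to 5.77 in tissue and rose in progenitors against tissue (1.28 ± 0.34, adjusted p = 0.00503) with no call in organoids. Slc6a15 and Slc7a2 passed the brightness filter in tissue alone and Slc7a3 in progenitors alone. For these, being tested and being higher in that sample type go together.

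Of 5 tested carriers of lysosomes and other inner membranes, 3 fell and 2 did not pass in progenitors against tissue (35.9% of all genes fell). In organoids against progenitors 3 rose and 2 did not pass (28.1% of all genes rose), and in organoids against tissue 1 fell (46.6% of all genes). Slc36a1, the lysosomal proton-coupled carrier of small amino acids, was 8.54 to 9.46 in organoids, 8.56 to 8.84 in progenitors and 8.39 to 9.52 in tissue, and its groups overlapped in every comparison of sample types. Its differences were -0.34 ± 0.18, 0.34 ± 0.18 and -0.01 ± 0.18 (adjusted p = 0.108, 0.115 and 0.973). Slc38a9, which reports lysosomal arginine to mTORC1, was 7.83 to 8.65 in organoids, 7.02 to 7.56 in progenitors and 7.39 to 8.09 in tissue. The probe set that stands for it was called only in organoids against progenitors among these comparisons (0.87 ± 0.24, adjusted p = 0.00695). That call was lost after quantile normalization and as the mean of its probe sets. Of its other 4 bright probe sets, 1 was called the opposite way there (-0.81, adjusted p = 0.00592) and 3 were not called. The former was also lower in organoids than in tissue (-0.86, adjusted p = 0.00336). The lysosomal glutamine carrier Slc38a7 was 7.94 to 8.31 in organoids, 7.33 to 7.93 in progenitors and 7.95 to 8.52 in tissue, with small differences of -0.54 ± 0.18 in progenitors against tissue and 0.48 ± 0.18 in organoids against progenitors (adjusted p = 0.0158 and 0.0272), both lost in the medulla groups alone. Slc38a10 was 12.57 to 12.95 in organoids, 10.66 to 10.91 in progenitors and 12.76 to 13.25 in tissue, fell in progenitors against tissue (-2.16 ± 0.09, adjusted p = 8.84e-10) and was higher in organoids than in progenitors (1.95 ± 0.09, adjusted p = 5.18e-09). Slc36a4 was 7.57 to 8.29 in organoids, 7.71 to 8.08 in progenitors and 8.36 to 9.20 in tissue and fell in both cultures against tissue (-0.83 ± 0.20 in progenitors and -0.85 ± 0.20 in organoids, adjusted p = 0.00233 and 0.00174), the first not called in the cortex groups alone.

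The remaining tested members were Slc36a3, Slc38a6, Slc7a4, Slc43a3 and Slc7a6os. Slc36a3 was 3.32 to 4.76 in organoids, 5.62 to 6.75 in progenitors and 5.02 to 6.23 in tissue and fell in organoids against progenitors (-1.41 ± 0.28, adjusted p = 0.000774). It passed the brightness filter in progenitors alone, so that being tested and being higher there go together. Slc38a6 was 8.37 to 10.14 in organoids, 9.56 to 9.93 in progenitors and 8.48 to 8.87 in tissue and rose in progenitors against tissue (1.03 ± 0.28, adjusted p = 0.00586, not called in the cortex groups alone). Slc7a4 was 4.77 to 7.20 in organoids, 8.73 to 9.12 in progenitors and 8.56 to 8.90 in tissue and fell in organoids against progenitors (-2.34 ± 0.34, adjusted p = 5.91e-05) and tissue (-2.11 ± 0.34, adjusted p = 0.000108) on the probe set that stands for it. Slc7a6os, which lies opposite Slc7a6 and is no carrier, was 8.98 to 10.40 in organoids, 7.83 to 8.01 in progenitors and 7.17 to 7.59 in tissue and highest in organoids on the probe set that stands for it (2.28 ± 0.18 against tissue, adjusted p = 1.64e-07). Its other bright probe set was lower in organoids than in progenitors (-1.39, adjusted p = 0.00319) and not called in organoids against tissue (0.54, adjusted p = 0.168), and as the mean of both the difference between organoids and progenitors was 0.21 (adjusted p = 0.333). It is 1 of 3 opposite-strand symbols that the choice of members takes in, and without them 42 members were tested, of which 9 rose and 26 fell in progenitors against tissue. The 18 members not tested had log2 signals between -1.07 and 6.99. They were Slc1a3, Slc1a6, Slc1a7, Slc36a1os, Slc36a2, Slc38a4, Slc38a5, Slc43a1, Slc6a3, Slc6a5, Slc6a7, Slc6a11, Slc6a16, Slc6a19os, Slc6a21, Slc7a10, Slc7a14 and Slc7a15. Several of these carry neurotransmitters in brain.

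Medulla and cortex were then compared within each sample type, with 2 arrays on each side. In tissue and in progenitors, limma called 0 of 43 members (0.338% and 0.315% of all genes), with 5 and 4 at an unadjusted p under 0.05. Apical carriers were near each other in the tissue of both regions, as with Slc6a18, whose difference was -0.08 ± 0.50 (adjusted p = 0.99). Slc6a19 was lower on both medulla tissue arrays than on both cortex tissue arrays, without passing (-0.94 ± 0.46, adjusted p = 0.602). In organoids 12 members passed (27.9%, against 17.9% of all genes), 6 of them higher (7.94% of all genes) and 6 lower (10% of all genes) in medulla than in cortex organoids. Among these 12, Slc7a8, Slc6a15 and Slc6a20b had passed the brightness filter in tissue alone.

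Slc43a3, a carrier of purine nucleobases in the amino acid family Slc43, had 7.61 and 8.12 in medulla organoids and 4.0 and 4.75 in cortex organoids, 5.75 and 5.40 in medulla progenitors and 5.33 and 5.78 in cortex progenitors, and 8.63 and 8.59 in medulla tissue and 7.98 and 8.80 in cortex tissue. Medulla organoids were close to tissue, and cortex organoids were below progenitors. Slc43a3 was higher in medulla than in cortex organoids (2.78 ± 0.34, adjusted p = 0.00043). Over both regions it fell in progenitors (-2.59 ± 0.24, adjusted p = 1.07e-06) and organoids (-1.99 ± 0.24, adjusted p = 9.48e-06) against tissue, and its difference between organoids and progenitors (0.60 ± 0.24, adjusted p = 0.0424) turned to -0.79 in the cortex groups alone. Slc1a5, by the signals given above, was 2.5-fold lower in medulla than in cortex organoids (-1.32 ± 0.18, adjusted p = 0.000716). The call of Slc1a5 held under every alternative tried, including each array left out, and so did that of Slc43a3 except under the stricter brightness filter, which left Slc43a3 untested. Slc6a4 was lower in medulla organoids (-1.97 ± 0.41, adjusted p = 0.00694).

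The chains of the apical cystine carrier differed in opposite directions between organoid regions, and no test compared them. The heavy chain Slc3a1 was higher in medulla than in cortex organoids (0.82 ± 0.19, adjusted p = 0.0115), and its light chain Slc7a9 was lower (-1.41 ± 0.38, adjusted p = 0.0254). Slc7a12 (-1.0 ± 0.27, adjusted p = 0.0278) and Slc6a20b (-1.20 ± 0.28, adjusted p = 0.0134) were lower in medulla organoids, as was Slc7a6os (-0.89 ± 0.25, adjusted p = 0.0303). These hold for the probe set that stands for each gene. The other bright probe set gave 0.69 for Slc6a20b and -0.07 for Slc7a6os, neither called (adjusted p = 0.344 and 0.95). That of Slc1a5 was called the same way as the first (-1.39, adjusted p = 0.0425). Higher in medulla organoids were Slc7a8 (1.46 ± 0.39, adjusted p = 0.0238), Slc6a15 (1.57 ± 0.47, adjusted p = 0.0406), the creatine carrier Slc6a8 (1.06 ± 0.26, adjusted p = 0.0152) and Slc7a6 (0.97 ± 0.25, adjusted p = 0.0221). The other bright probe set gave 0.96 for Slc6a8 and -0.07 for Slc7a6, neither called (adjusted p = 0.055 and 0.887). Slc7a8, Slc6a15 and Slc6a20b were dim in organoids, at 0.06 to 5.42, 0.54 to 6.39 and 1.46 to 5.12. With the 4 organoid arrays fitted alone, 3 of the 12 calls remained (6.98% of members, against 1.84% of all genes), those of Slc43a3, Slc1a5 and Slc7a12. Without either cortex organoid replicate there were also fewer calls. Fibroblast and feeder markers moved with the region: 10 of 11 were higher in medulla organoids, and the list averaged 8.72 and 8.68 in medulla organoids against 5.64 and 6.60 in cortex organoids, with 9.19 to 9.48 in progenitors and 8.16 to 9.09 in tissue. Their part in these differences was not tested.

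**Figure D5:**
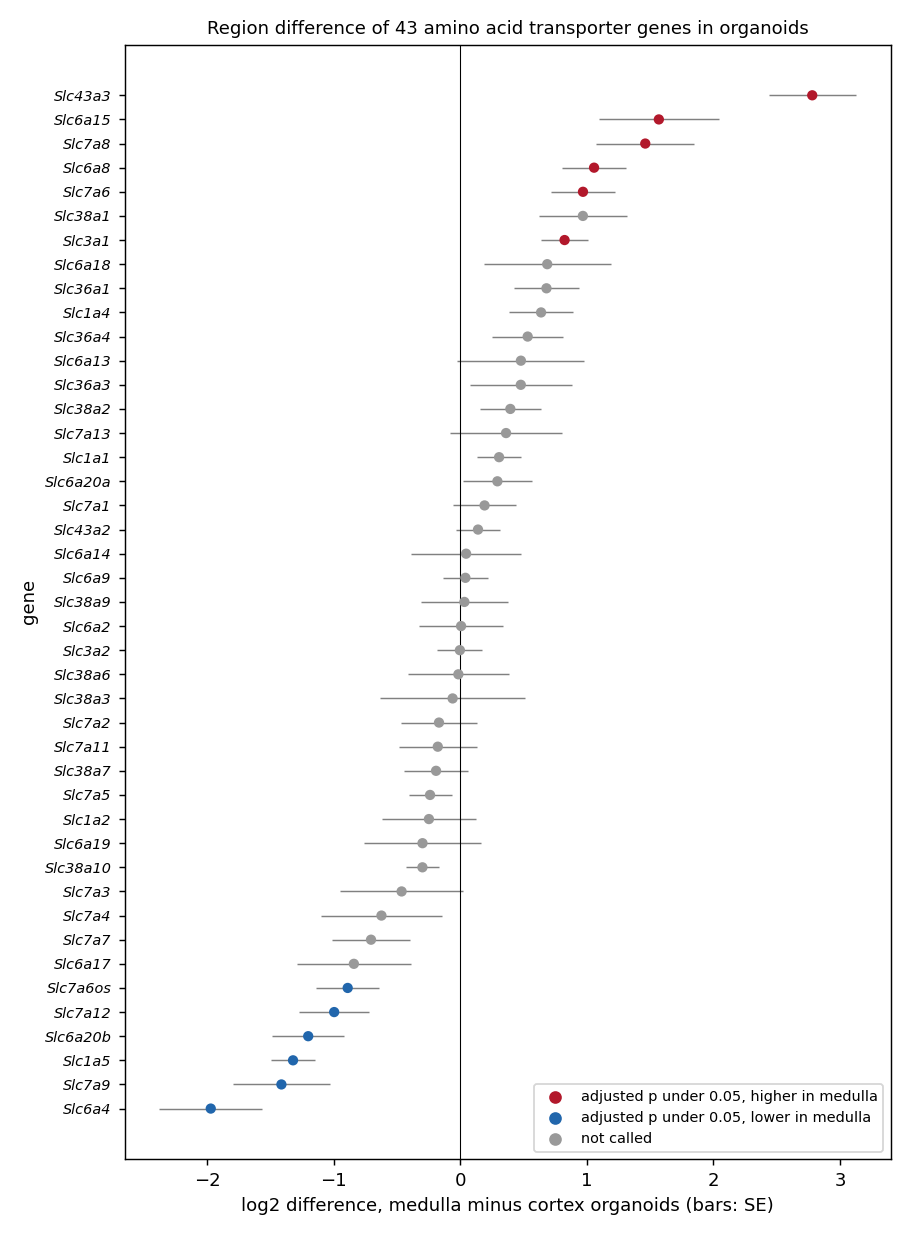
Log2 difference between medulla and cortex organoids (horizontal axis, with its SE) of the 43 tested members, with 2 arrays on each side. Coloured points passed an adjusted p under 0.05, from Slc43a3 at 2.78 to Slc6a4 at -1.97.

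Whether the region difference itself changed between sample types was tested with an interaction term. Between progenitors and tissue, limma called 0 of 43 members (0.284% of all genes), with 7 at an unadjusted p under 0.05. Between organoids and progenitors it called 3 (6.98%, against 4.11%), 1 higher (1.63% of all genes) and 2 lower (2.48%), with 12 at an unadjusted p under 0.05. These were Slc43a3 (2.77 ± 0.49, adjusted p = 0.0116), Slc1a5 (-1.11 ± 0.25, adjusted p = 0.0332) and Slc6a4 (-2.69 ± 0.57, adjusted p = 0.027). The region difference of Slc43a3 was 2.78 in organoids and 0.01 in progenitors. For Slc1a5 the same differences were -1.32 and -0.22, and for Slc6a4 -1.97 and 0.72.

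Partners and other carriers of amino acids or peptides outside these families were mostly lower in culture than in tissue. Of 15 tested among 22 listed, 0 rose and 10 fell in progenitors against tissue (0% and 66.7%, against 36.8% and 35.9% of all genes), and 1 rose and 11 fell in organoids against tissue (6.67% and 73.3%, against 33.1% and 46.6%). In organoids against progenitors 5 rose and 7 fell (33.3% and 46.7%), close to the 28.1% and 44.3% of all genes. Cltrn (collectrin), without which Slc6a19 and Slc6a18 do not reach the apical membrane of the mouse kidney, had 7.14 and 7.39 in medulla organoids and 6.16 and 7.01 in cortex organoids, 3.39 and 1.75 in medulla progenitors and 2.44 and 3.69 in cortex progenitors, and 14.67 and 14.79 in medulla tissue and 14.99 and 14.82 in cortex tissue. Progenitors were lowest, organoids were intermediate and tissue was among the brightest values of the gene's scale. Cltrn fell in progenitors against tissue (-10.30 ± 0.19, adjusted p = 2.35e-12), was higher in organoids than in progenitors (2.59 ± 0.19, adjusted p = 1.92e-07) and lower in organoids than in tissue (-7.72 ± 0.19, adjusted p = 1.55e-11). Slc15a2, the apical peptide carrier, fell in progenitors against tissue (-2.36 ± 0.11) and was higher in organoids than in progenitors (2.72 ± 0.11, adjusted p = 1.47e-09 and 1.6e-09). That rise was larger than the fall, so that the mean of Slc15a2 in organoids was not below that in tissue. Slc16a10, the basolateral carrier of aromatic amino acids, was lower in progenitors (-2.43 ± 0.19) and in organoids (-1.09 ± 0.19) than in tissue (adjusted p = 2.11e-07 and 0.000211).

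The amino acid response was read from 24 genes known to follow ATF4 or to act with it. In progenitors against tissue 18 rose and 4 fell (75% and 16.7%, against 36.8% and 35.9% of all genes), with a median of 1.69. In organoids against tissue 16 rose and 4 fell (66.7% and 16.7%, against 33.1% and 46.6%), with a median of 1.33. In organoids against progenitors 6 rose and 12 fell (25% and 50%), close to the 28.1% and 44.3% of all genes. Asns, asparagine synthetase, was 10.84 to 11.67 in organoids, 12.33 to 12.59 in progenitors and 7.90 to 8.64 in tissue. It was higher in progenitors than in tissue (4.23 ± 0.14, adjusted p = 1.05e-10), lower in organoids than in progenitors (-1.26 ± 0.14, adjusted p = 6.41e-06) and higher in organoids than in tissue (2.97 ± 0.14, adjusted p = 1.97e-09). Chac1, which degrades glutathione, showed the same order, with 3.89 ± 0.18, -2.85 ± 0.18 and 1.04 ± 0.18 in these comparisons (adjusted p = 1.3e-09, 3.76e-08 and 0.000152). Atf4 itself gave 1.91 ± 0.10, -1.27 ± 0.10 and 0.64 ± 0.10 (adjusted p = 5.26e-09, 3.09e-07 and 9e-05). Slc7a5, Slc7a6 and Slc38a1 had that order as well, whereas Slc7a11 and Slc6a14, and Slc1a4 on 1 of 3 bright probe sets, were highest in organoids. Slc3a2 was lower in both cultures than in tissue, and the 3 bright probe sets of Slc38a2 gave different orders.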

How the data were processed

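RNA from 6 groups of 2 samples was hybridised to 3′ expression arrays after biotin labelling, per the labels' protocols. The authors deposited log2 signals of 45101 probe sets, computed with MAS5 per the submitters' processing notes at a version not given in the sources used here. On every array the mean of the unlogged values after trimming 2% at each end was 500, so the values had been scaled to a common target. Array medians were 5.86 to 6.53.

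Probe sets were named from the platform annotation: 34945 had a single gene symbol (34741 matched a current gene ID), 932 several and 9211 none, and 64 controls were left out. Each gene was read from its brightest probe set (highest mean of 12 arrays) and tested if both arrays of some group exceeded their array medians there. Signals were unlogged, 15.1592 units (the 25th percentile) were added and log2 was taken, which understates differences of dim genes. R 4.3.3 and limma 3.58.1 fitted 6 group means over 12 arrays (6 residual degrees of freedom, prior 5.66, mean-variance trend), with two-sided tests, Benjamini-Hochberg adjustment over 13031 genes and a threshold of 0.05. The script was tested on simulated data. The number of arrays limits the precision, and where samples are not from separate animals or cultures the p-values measure only the spread between these samples.

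All members may be named, since their choice used no value. Values on each array and full tests went to the up to 10 largest changes of at least 2-fold each way per comparison and to a set list of renal and culture carriers, of which the text gives many by ranges. Members, gene lists and tests were chosen with earlier results of these data known. Between-array scaling, offset, brightness filter, probe set choice, variance model, replicate block and each array left out were alternatives; the regions fitted apart and the other bright probe sets were added after seeing the data. Promoters came from RefSeq (GRCm38.p6). Gene coordinates were not given, since the array files name no build.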

Additional observations from a re-analysis of the deposited data

Results flagged for a closer look

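For 3 carriers the difference between medulla and cortex was not the same in organoids as in progenitors, by the interaction term in limma. The change of the log2 region difference was 2.77 for Slc43a3 (adjusted p = 0.0116), where medulla minus cortex was 2.78 ± 0.34 in organoids and 0.01 ± 0.34 in progenitors. It was -1.11 for Slc1a5 (adjusted p = 0.0332), where the differences were -1.32 ± 0.18 in organoids and -0.22 ± 0.18 in progenitors. It was -2.69 for Slc6a4 (adjusted p = 0.027), where they were -1.97 ± 0.41 in organoids and 0.72 ± 0.41 in progenitors, and the progenitor arrays of medulla were uneven at 2.54 and 5.13. Leaving out progenitor cortex replicate 2 or progenitor medulla replicate 2 ended the call of Slc43a3 (adjusted p = 0.0648 and 0.0617). The calls of Slc1a5 and Slc6a4 were lost when single arrays were left out, with adjusted p up to 0.15 and 0.104. With the replicate block that of Slc1a5 was also lost (adjusted p = 0.0505).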

How the results depend on the processing

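Counts of members called between sample types stayed within 1.5 times of the reported ones under every alternative, with 34 to 36 in progenitors against tissue, 26 to 33 in organoids against progenitors and 36 to 40 in organoids against tissue when single arrays were left out. Region calls were less stable. In organoids they numbered 3 with only the groups compared, 2 with array weights per group and 4 to 14 with an array left out (5 without cortex organoid replicate 1, 4 without replicate 2). The change of the region difference between organoids and progenitors gave 1 under the stricter brightness filter, where Slc43a3 and Slc6a4 were no longer tested and the call of Slc1a5 held, and 1 with only the groups compared and with array weights, and 0 to 7 with an array left out (0 without cortex progenitor replicate 2 or medulla progenitor replicate 2, 1 without cortex progenitor replicate 1 or either cortex organoid replicate, 5 and 7 without medulla organoid replicate 1 and 2). Array weights called 1 member in tissue (2.33%, against 1.21% of all genes) and 2 in progenitors (4.65%, against 2.62%). For the change between progenitors and tissue they called 1 (2.33%, against 1.6%). Leaving out medulla tissue replicate 2 brought calls in tissue and for that change, where the share of all genes rose as well. No array left out brought a call in progenitors.

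Directions turned for 5 differences. These were Slc38a10 in organoids against tissue under quantile normalization (0.26, adjusted p = 0.031), Slc38a2 and Slc6a19 in organoids against progenitors as the mean of all probe sets (0.72, adjusted p = 0.00235, and 0.21, adjusted p = 0.544), Slc43a3 there in the cortex groups alone (-0.79, adjusted p = 0.0649) and Slc38a6 between organoid regions, called at 0.85 without medulla organoid replicate 2 and at -0.88 without replicate 1 (adjusted p = 0.00694 and 0.00896). The causes were not tested.

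With the replicate block, 36, 29 and 37 members were called between sample types (83.7%, 67.4% and 86%, against 72.2%, 72% and 79.4% of all genes). Between regions of tissue, progenitors and organoids 0, 0 and 11 were called (25.6% in organoids, against 16.4%). For the changes of the region difference 0 and 2 were called (4.65% for the latter, against 3.12%). Same-numbered samples did not deviate together (correlations of -0.138 to 0.057) and were not treated as pairs; the labels do not say whether they share an animal. Medulla organoid replicates differed most (median absolute log2 difference 0.413 over all genes, against 0.128 to 0.226 in the other groups), and 2 arrays a group limit every region comparison.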
